A study of Mus musculus with 12 samples.

Results

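SRA, the steroid receptor RNA activator, is a non-coding RNA that binds nuclear receptors and their coregulators, among them PPARγ, the master regulator of fat cell formation. Its overexpression was measured here in ST2 cells, a mouse line of mesenchymal cells from bone marrow stroma that can become fat cells or bone cells. The comparison holds 6 of the 12 arrays of the series, chosen by their labels: 3 arrays of ST2 cells infected with a pMSCV retrovirus carrying SRA and 3 of ST2 cells infected with the empty pMSCV virus. Both groups carry the strain label BC8 and the day 4 label of adipocyte differentiation. Both had received the same inducers: insulin at 0.167 µM, troglitazone at 5 µM, dexamethasone at 1 µM and methylisobutylxanthine at 0.5 mM, so every difference below is a difference between 2 populations of drug-induced adipocytes, troglitazone being itself a PPARγ ligand. The virus carries a human SRA cDNA, infected cells were selected in puromycin, and the methods name no single clone. RNA was read on Affymetrix Mouse Genome 430 2.0 arrays, and values are log2 RMA levels, on which a difference of 1 is a 2-fold change. The labels call the arrays of a group biological replicates without saying whether they came from separate infections, so the p-values measure the spread between these arrays.

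During adipogenesis a fibroblast-like precursor stops dividing, loses much of its fibrillar matrix and its contractile actin cables, and gains the proteins of lipid uptake and storage and of insulin-driven glucose transport. Marrow stromal cells also feed blood formation, with chemokines, colony-stimulating factors and a matrix that holds blood precursors, and like most mesenchymal cells they answer interferons with a set of antiviral genes. These programmes, and signalling, metabolic and regulatory groups beside them, were followed through 50 gene lists with 1095 measured genes, of which 697 varied enough over the 12 arrays of the series to be tested; a gene that did not counts as not called.

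The labelled cell type was borne out by its markers. Adipoq, the hormone adiponectin, stood between 14.29 and 14.62 on all 6 arrays, and Fabp4, the fatty acid binding protein of fat cells, between 14.62 and 15.00 by its brightest probe set, so both sat near the top of the scale in both groups and these probe sets did not vary enough to be tested. Of the 3 dimmer Fabp4 probe sets, which were tested, 2 were called higher with SRA (log2 differences of 0.91 and 0.84, adjusted p = 0.00696 and 0.0197), and the other had a difference of 0.42 (adjusted p = 0.142). Pparg was at 12.01, 11.17 and 11.74 with the empty vector and 12.05, 11.93 and 12.17 with SRA and did not pass the test (adjusted p = 0.201). Markers of stromal precursors, described further below, were present as well. Over 18 of them the mean level was 8.19 to 8.37 on the empty vector arrays and 7.96 to 8.02 on the SRA arrays. Markers of blood cells and endothelium were mostly low: the pan-leukocyte gene Ptprc lay between 3.89 and 4.23, the macrophage gene Adgre1 between 5.32 and 5.52, and the endothelial genes Pecam1 and Cdh5 between 5.01 and 5.89. Over the 16 measured macrophage and blood cell markers the mean level ran from 5.98 to 6.14 on the empty vector arrays and from 6.06 to 6.21 on the SRA arrays, and over the 12 endothelial markers from 5.58 to 5.83 and from 5.57 to 5.64. Only 5 of the 16 and 1 of the 12 varied enough to be tested. Of those tested 0 were called by limma with all 6 arrays and 0 had an unadjusted p under 0.05. Without empty vector replicate 2, 1 macrophage and blood cell marker was called higher. The study's own tables give the list member Cd14 as lower with SRA, but it was not called here. Cd68, a lysosomal protein that many cell types make, was an exception in level. It was at 8.14, 7.80 and 8.48 in the empty vector group and 8.41, 8.74 and 8.73 in the SRA group (adjusted p = 0.458). The macrophage gene Csf1r also stood higher by the probe set tested, at 6.71, 8.03 and 7.07 with the empty vector and 7.21, 6.98 and 6.92 with SRA (adjusted p = 0.597). The probe set of Sra1 itself reads the mouse transcript, while the virus carries the human sequence. It was at 11.14, 10.67 and 11.24 on the empty vector arrays and 11.13, 11.13 and 11.44 on the SRA arrays, a log2 difference of 0.22 (SE 0.18, adjusted p = 0.484), so the array does not check the overexpression.

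Array quality set limits that touch the counts. Over bright probe sets (mean level of 8 or more) empty vector replicate 2 had a median deviation of -0.43 from its group's other arrays. It also had the narrowest spread of values. The totals of called genes and many list counts are therefore given with and without it. Other counts are given with all 6 arrays alone or with a range over the fits without 1 array. Controls added at hybridization, which are bacterial and phage transcripts spiked into every sample, averaged 10.5 to 10.9 on the empty vector arrays and 11.1 to 11.4 on the SRA arrays, with no overlap. By limma the bacterial spike probe sets bioB-5 and bioB-M passed the threshold as higher with SRA (0.77 and 0.78, adjusted p = 0.0332 and 0.0461). The other bacterial ones were 0.50 to 0.64 higher and did not pass (adjusted p = 0.0704 to 0.128). The phage spikes did not vary enough to be tested. The 18S ribosomal RNA probe set was also higher on the SRA arrays, 8.38 to 8.79 against 7.42 to 7.76. The 3′ minus 5′ difference of Gapdh, a sign of RNA integrity, was -0.18 to -0.13 on all 6 arrays. The part of the spike and 18S difference in the results was not tested.

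**Figure D1:**
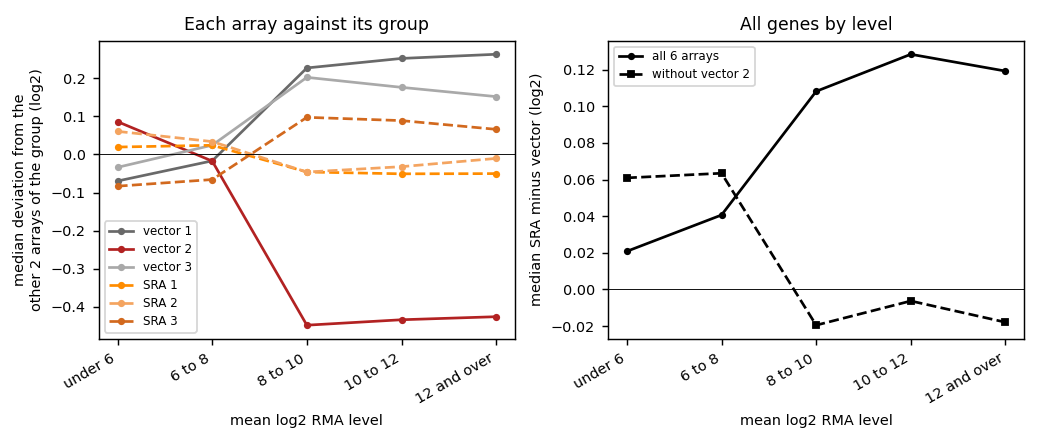
Left, the median difference of each array from the other 2 arrays of its group (log2) against the mean level of the gene, in 5 level classes; right, the median SRA minus empty vector difference over all genes of each class with 6 arrays and without empty vector replicate 2. Vector 2 departs most from the other arrays at levels of 8 and above, where its deviation is -0.45 to -0.43, and leaving it out moves the median difference at levels of 8 to 10 from 0.11 to -0.02.

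With 1 probe set for each of 18194 genes, 569 genes were lower and 230 higher in SRA overexpressing ST2 adipocytes than in empty vector adipocytes (limma, Benjamini-Hochberg adjusted p under 0.05). That is 3.13% and 1.26% of the genes measured, or 6.94% and 2.81% of the 8196 genes that varied enough to be tested. Over probe sets, 1522 of 19068 tested were called, 7.98%. Without empty vector replicate 2 the counts were 941 genes lower and 207 higher, 5.17% and 1.14% of those measured. Of the genes called with all 6 arrays, 560 of the 569 lower and 179 of the 230 higher were called again without that array. The direction was uneven in size as well as in number: 236 called genes were at least 2-fold lower and 20 at least 2-fold higher. The median difference over all genes was 0.06 (0.04 without replicate 2). The higher calls were the less stable of the 2 sets, since 310 lower but 58 higher genes were called whichever single array was left out. Without empty vector replicate 1, 486 genes were higher, and without SRA replicate 1, 2 or 3, 107, 72 and 99. Lower genes numbered 331 without SRA replicate 2.

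**Figure D2:**
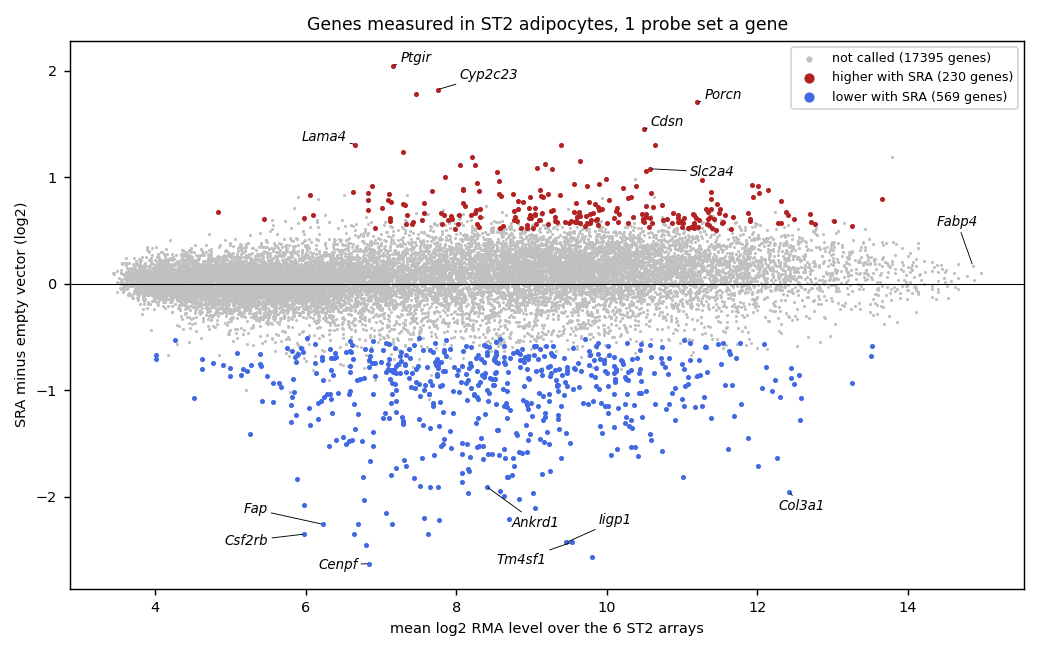
Difference between SRA and empty vector arrays (log2) against the mean level over the 6 ST2 arrays, 1 point per gene; red points were called higher, blue points lower, grey points not called or not tested. The 569 blue points reach further from 0 than the 230 red ones, down to -2.63 for Cenpf against 2.05 for Ptgir, and Fabp4 is drawn by its brightest probe set, near 0 at the top of the scale, while 2 of its dimmer probe sets were called higher.

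Among genes that the study's own tables do not name, the largest rise was in Ptgir, the receptor for prostacyclin, which raises cyclic AMP. Ptgir was at 5.94, 5.76 and 6.70 with the empty vector and 7.54, 8.52 and 8.48 with SRA (log2 difference 2.05, SE 0.25, adjusted p = 2.29e-05), a 4.14-fold rise. All 3 SRA arrays lay above all 3 empty vector arrays, as they did for each of the 25 largest rises by the way these were chosen. Over all measured genes 19.3% had groups that did not overlap. A pair of cytochrome P450 genes came next. Cyp2c23, an epoxygenase of arachidonic acid, was at 6.65, 6.56 and 7.32 in the empty vector group and 8.82, 8.59 and 8.59 in the SRA group (log2 difference 1.82). Cyp4b1, a monooxygenase found in lung and fat, was at 6.33, 6.50 and 6.90 on the empty vector arrays and 8.09, 8.31 and 8.69 on the SRA arrays (log2 difference 1.78). Porcn, which attaches the lipid that Wnt proteins need for secretion, was at 10.04, 10.39 and 10.62 with the empty vector and 11.86, 12.13 and 12.16 with SRA (log2 difference 1.70, adjusted p = 5.34e-05).

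Further genes with large rises handle lipids, glucose or second messengers. Ffar2, through which acetate and propionate restrain lipolysis in fat cells, went from 9.95, 9.81 and 10.20 to 11.33, 11.19 and 11.36 (1.30, adjusted p = 9.52e-05). Abhd6, a monoacylglycerol lipase, went from 8.96, 8.36 and 8.91 to 9.92, 10.18 and 10.03 (1.30). Slc2a4, the insulin-responsive glucose transporter GLUT4, went from 10.19, 10.01 and 9.92 to 11.04, 11.41 and 10.90 (1.08), and Txnip, an inhibitor of thioredoxin that also curbs glucose uptake, from 9.97, 9.64 and 10.36 to 10.76, 11.18 and 11.20 (1.06). The cyclic nucleotide exporter Abcc4 (0.98), the phospholipase Plcb4 (1.24), the phosphodiesterase anchor Pde4dip (1.12) and Angptl6, a secreted angiopoietin-like factor (1.08), were also higher. Structural genes were among them: Lama4 and Lamb2, laminin chains of basement membranes (1.31 and 1.11), Col15a1, a collagen of basement membrane zones (1.11), Cdsn, an adhesion protein known from skin (1.45), Cldn15, a tight junction protein (0.97), Acta1, skeletal muscle actin (0.95), Hspb6, a small heat shock protein of muscle (0.99), and Coro6, a coronin (1.01). The rest of the 25 were Dbp, a clock output factor (1.05), Chchd10, a mitochondrial protein (1.15), Arhgap33 (1.20), Prxl2a (1.08) and Ttc17 (0.94). All 25 were called whichever single array was left out. The rises of Lama4, Plcb4 and Pde4dip rest on 1 probe set each, since no other tested one passed. The other Lama4 probe set had a log2 difference of 0.22 (adjusted p = 0.485), the other 4 of Plcb4 ran from 0.12 to 0.34 and the other 3 of Pde4dip from -0.11 to 0.24.

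The largest fall was in Cenpf, a kinetochore protein made in dividing cells, at 8.68, 7.50 and 8.27 in the empty vector group and 6.17, 5.24 and 5.16 in the SRA group (log2 difference -2.63, SE 0.26, adjusted p = 2.13e-06), a 6.18-fold fall. Iigp1, an interferon-induced GTPase that attacks vacuoles holding microbes, was at 11.46, 9.89 and 10.68 on the empty vector arrays and 8.28, 7.85 and 8.62 on the SRA arrays (-2.43). The empty vector arrays of Iigp1 spread over more than 1 log2 unit but stayed above all SRA arrays. Tm4sf1, a surface protein of the tetraspanin-like family, was at 10.79, 10.50 and 10.97 with the empty vector and 8.07, 8.39 and 8.52 with SRA (-2.43, adjusted p = 1.17e-06). Medag, named for its part in adipocyte differentiation, was at 8.78, 8.54 and 9.07 in the empty vector group and 6.39, 6.44 and 6.50 in the SRA group (-2.35). Csf2rb, the beta chain that the receptors for GM-CSF, IL-3 and IL-5 share, was at 6.85, 7.03 and 7.58 on the empty vector arrays and 4.88, 4.88 and 4.65 on the SRA arrays (-2.35). Its SRA values were close to the 4.49 to 4.91 seen on the 6 arrays of 3T3-L1 adipocytes in the same series.

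The rest of the 25 largest falls held genes of many kinds. Fap, a serine protease of activated fibroblasts, went from 7.60, 6.86 and 7.61 to 4.94, 5.22 and 5.14 (-2.26). Col3a1, a fibrillar collagen, went from 13.61, 13.08 and 13.52 to 11.55, 11.13 and 11.67 (-1.95) and its second tested probe set fell by 2.74. Enpep, a peptidase that cleaves angiotensin (-1.96), S1pr1, a receptor for sphingosine 1-phosphate (-1.95), Adgrg6, an adhesion receptor (-2.03), Fstl1, a secreted glycoprotein (-1.82), and Tmem100, a membrane protein (-2.35), all fell. So did genes of muscle or the cytoskeleton: Synpo, synaptopodin (-2.25), Ankrd1, a muscle ankyrin repeat protein (-1.91), Tnnc1, slow troponin C (-1.81), and Ank3, which links membrane proteins to the spectrin skeleton (-1.90). Vdr, the vitamin D receptor, was at 9.56, 9.70 and 9.66 with the empty vector and 7.99, 7.61 and 7.92 with SRA (-1.80, adjusted p = 5.19e-07). The others were Evi2a (-2.45), E330013P04Rik (-2.22), D17H6S56E-5 (-1.99), Gm4951 (-1.91), Stac2 (-1.82), the mitotic genes Nuf2 (-1.83) and Top2a (-1.82), and Ifit1 (-2.02). All 25 were called whichever array was left out, but the other tested probe sets of Evi2a (-0.25) and Top2a (-0.27 and -0.35) did not pass.

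**Figure D3:**
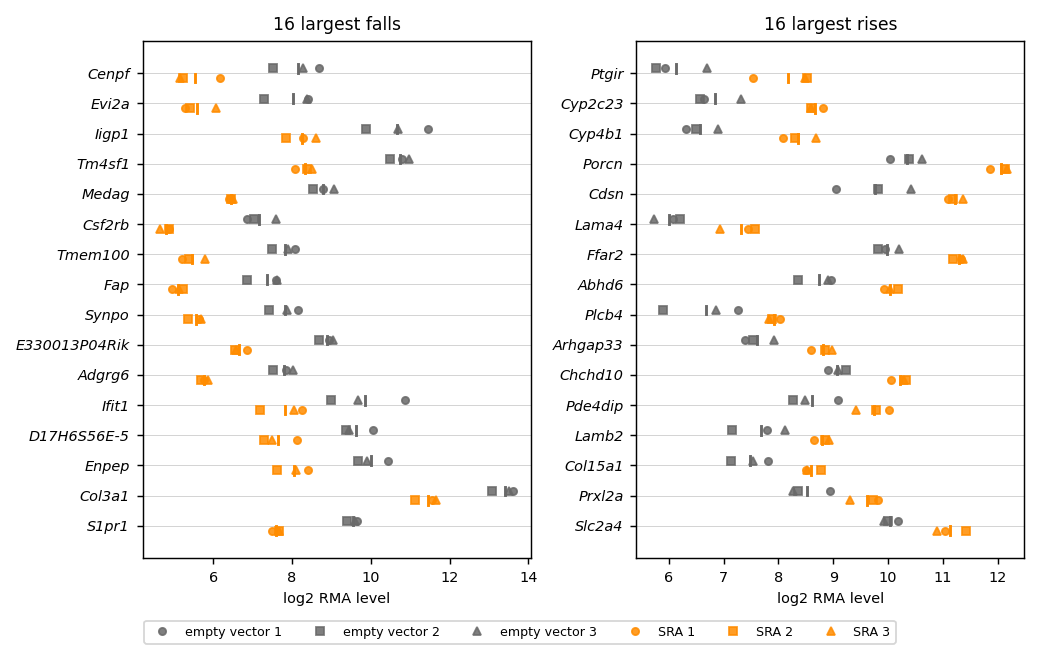
Log2 RMA level on each of the 6 arrays for the 16 largest falls (left) and the 16 largest rises (right) among called genes whose groups do not overlap, leaving out genes of the study's own tables. Dark grey symbols are empty vector arrays, orange symbols SRA arrays, each shape 1 replicate number, and the vertical bar is the group mean; genes were chosen for the gap between colours.

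The gene lists moved mostly one way. Of the 50 lists, the highest shares of lower members were in mitotic genes, interferon-inducible GTPases and other interferon-stimulated genes, and the highest shares of higher members in adipocyte markers and circadian clock genes. Lists are described by their counts beside the 3.13% lower and 1.26% higher of all measured genes, and by their median beside 0.06 over all genes. Over the genes tested these shares were 6.94% and 2.81%. The lists hold more tested genes, 697 of 1095, than the whole, 8196 of 18194, so part of their distance from the first shares comes with the filter.

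**Figure D4:**
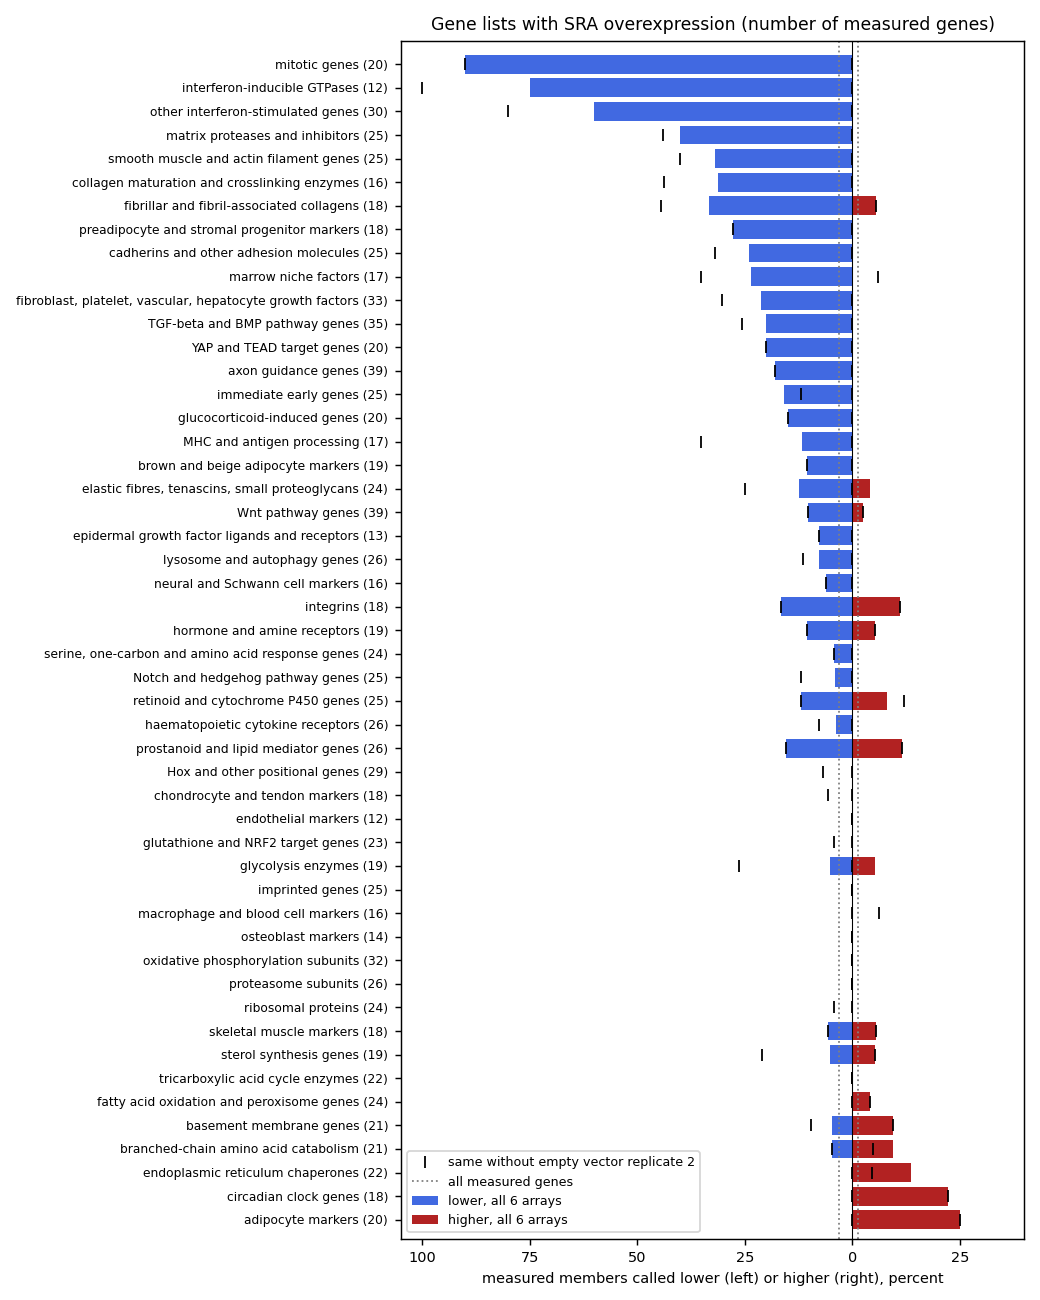
For each of 50 gene lists, the percent of measured members called lower (blue, to the left) or higher (red, to the right) with SRA, with the number of measured members in brackets; black ticks give the same without empty vector replicate 2 and dotted lines the share over all measured genes. Blue bars are longest for mitotic genes (18 of 20) and the interferon lists (9 of 12 and 18 of 30), and red bars for adipocyte markers (5 of 20) and clock genes (4 of 18).

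Genes that interferons switch on were lower as a group. Type I interferons act through their receptor on genes that carry a short element in their promoters, the interferon-stimulated response element, while immunity-related GTPases and guanylate-binding proteins answer interferon gamma as well. Of 12 measured interferon-inducible GTPases, all past the variance filter, 9 were lower and 0 higher, with 12 at an unadjusted p under 0.05, all lower, and the median difference was -0.95. Of 30 other interferon-stimulated genes, 27 past the filter, 18 were lower and 0 higher (median -0.90). Ifit1, which binds foreign RNA, was at 10.88, 9.00 and 9.67 in the empty vector group and 8.24, 7.18 and 8.05 in the SRA group (SE 0.35, adjusted p = 6.37e-04). Zbp1, a sensor of left-handed nucleic acid, was at 8.65, 8.44 and 8.02 on the empty vector arrays and 6.84, 6.77 and 6.58 on the SRA arrays (-1.64, adjusted p = 5.03e-06). Rsad2, the antiviral enzyme viperin, was at 9.02, 7.77 and 8.73 with the empty vector and 6.95, 6.75 and 7.01 with SRA (-1.61), and Ifit3, a partner of Ifit1, at 10.20, 8.80 and 8.82 in the empty vector group and 8.11, 7.11 and 7.80 in the SRA group (-1.60).

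Of the 42 genes of both lists, 37 were highest on empty vector replicate 1 and 35 lowest on SRA replicate 2. Averaged over the list, the GTPases stood at 10.02, 8.82 and 9.32 on the empty vector arrays and 8.40, 8.16 and 8.53 on the SRA arrays, so the groups did not overlap but the vector arrays differed among themselves by more than their lowest differed from the SRA arrays. Gbp3 (-1.26), Gbp6 (-1.15) and the antiviral dynamin Mx2 (-1.10) fell with Iigp1. In these lists 3 of the 12 GTPases and 12 of the 30 other genes were not called. Interferon-stimulated genes that did not pass included Irf1 and Isg20 (0.01, adjusted p = 0.98). Irf1 was at 10.64, 10.54 and 10.71 on the empty vector arrays and 10.62, 10.77 and 10.55 on the SRA arrays, and did not vary enough to be tested. The counts depended on single arrays: without SRA replicate 2 they were 3 of 12 and 8 of 30, without empty vector replicate 1 the second list had 9, and without empty vector replicate 2 they were 12 and 24. Among 17 measured genes of antigen presentation 2 were lower, Psmb9, a subunit of the immunoproteasome (-1.10), and H2-M3, a class Ib molecule (-0.70); 6 were lower without empty vector replicate 2, and 1 without empty vector replicate 3 or SRA replicate 2. Of 26 measured haematopoietic cytokine receptors Csf2rb alone was called, with 2 lower without empty vector replicate 2.

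Promoter stretches of Ifit1 and Rsad2, which fell most among the members whose response element could be shown, follow, with the element starting 104 and 120 bases before the start site. Sequences are from RefSeq (build GRCm38.p6), 5′ to 3′ on the gene's strand, and capitals mark each match to GAAANNGAAA or its reverse complement. Ifit1 is at chr19:34640735-34640844 on the plus strand and Rsad2 at chr12:26456513-26456622 on the minus strand.
Ifit1: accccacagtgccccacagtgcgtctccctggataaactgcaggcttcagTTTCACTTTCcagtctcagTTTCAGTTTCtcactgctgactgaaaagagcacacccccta
Rsad2: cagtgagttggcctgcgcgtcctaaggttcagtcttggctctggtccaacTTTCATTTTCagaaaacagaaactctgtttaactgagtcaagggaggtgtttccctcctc
Of the 31 members of both interferon lists with a promoter window of 300 bases, 18 held this element on either strand, and so did 13 of the 19 that were lower. Over all 14453 measured genes with a window the share was 3.63%. These genes are known for the element, and a match describes letters in a window and no binding.

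**Figure D5:**
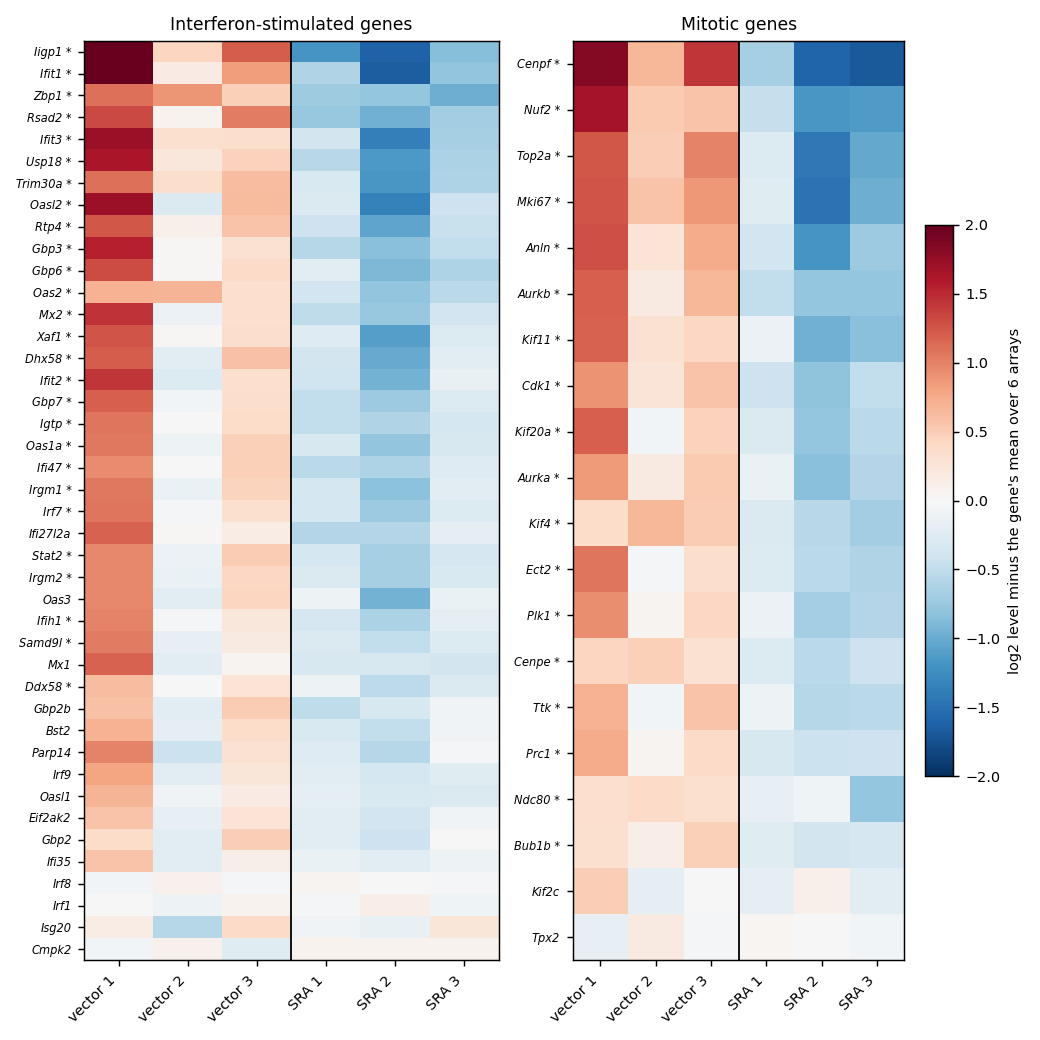
Level of each gene on each array minus the gene's mean over the 6 arrays (log2; red above, blue below, colours end at 2 and -2) for members of the interferon lists (left) and of the mitotic list (right), ordered by difference; an asterisk marks genes called lower. Vector 1 is the highest array for 37 of 42 interferon and 15 of 20 mitotic genes and SRA 2 the lowest for 35 and 13, and vector 2 is near 0 for many interferon genes.

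Genes of cell division were lower almost throughout. Differentiating adipocytes leave the cell cycle after a few rounds of division early on, and mitotic genes are transcribed only in cells that are about to divide. Of 20 measured mitotic genes 18 were lower and 0 higher (median -1.03), and 14 to 18 were lower when single arrays were left out. Nuf2, a part of the kinetochore complex that holds spindle fibres, was at 7.55, 6.40 and 6.45 with the empty vector and 5.42, 4.73 and 4.76 with SRA (adjusted p = 5.97e-05). Top2a, the topoisomerase that untangles chromosomes, was at 9.92, 9.17 and 9.66 in the empty vector group and 8.41, 7.24 and 7.65 in the SRA group. Mki67, the proliferation marker Ki-67, was at 8.39, 7.71 and 8.01 on the empty vector arrays and 6.90, 5.66 and 6.16 on the SRA arrays (-1.80). For these genes SRA replicate 1 was the highest of its group, and the groups did not overlap. In bulk RNA, fewer dividing cells and less of each transcript per cell cannot be told apart. The 2 members not called, Kif2c and Tpx2, had log2 differences of -0.21 and -0.00.

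Promoters of such genes often pair a cell cycle homology region with CCAAT boxes. The stretches of the 2 mitotic genes with the largest falls that hold TTTGAA and CCAAT before the start site follow, with both motifs in capitals on either strand, for Top2a at chr11:99024343-99024436 and Mki67 at chr7:135716470-135716587, both on the minus strand.
Top2a: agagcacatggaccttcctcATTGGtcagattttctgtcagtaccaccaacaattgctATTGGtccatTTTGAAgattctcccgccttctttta
Mki67: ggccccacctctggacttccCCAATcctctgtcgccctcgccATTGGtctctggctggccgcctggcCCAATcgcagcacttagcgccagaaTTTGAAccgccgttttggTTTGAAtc
Both motifs were in the windows of 12 of the 17 mitotic genes with one, all 12 among the 16 that were lower, and in 6.21% of the measured genes. With 16 of the 17 lower, the place of the 12 among them says little. Mitotic genes are known for these motifs, and a match describes letters in a window and no binding.

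The matrix lists held many falls and a few rises. Fibroblasts and marrow stroma build a matrix of fibrillar collagens, whereas fat cells surround themselves with a basement membrane of laminins, nidogens and collagens of other types. Over the 5 matrix lists with 104 genes, 25 were lower and 4 higher (34 and 3 without empty vector replicate 2). Of 18 fibrillar and fibril-associated collagens 6 were lower (4 to 8 over the fits without 1 array), among them Col1a1, the main chain of collagen I, at 11.58, 10.86 and 11.51 with the empty vector and 10.17, 9.36 and 10.01 with SRA (-1.47, adjusted p = 1.54e-04), and Col8a1, a short-chain collagen, at 9.77, 9.39 and 9.57 in the empty vector group and 8.31, 7.52 and 7.98 in the SRA group (-1.64). Col15a1 was the only collagen of the list that rose, with SRA arrays at 8.51, 8.77 and 8.53. Among 21 basement membrane genes Lama4 and Lamb2 rose and Nid1, nidogen, fell (-0.96); without empty vector replicate 2, 2 were lower.

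Among enzymes that cut or crosslink matrix and their inhibitors, the called members were all lower, though most members were not called. Of 25 matrix proteases and inhibitors 10 were lower and 0 higher (7 to 11 lower over the fits without 1 array). Mmp13, a collagenase, was at 12.96, 12.70 and 12.91 on the empty vector arrays and 10.91, 10.79 and 11.75 on the SRA arrays (-1.71, adjusted p = 2.29e-05) and was thus abundant in the empty vector adipocytes, whereas the 3T3-L1 arrays had 3.85 to 4.53. Plat, the tissue plasminogen activator, was at 9.94, 9.43 and 9.51 with the empty vector and 8.15, 7.75 and 7.83 with SRA (-1.71), and the metalloproteinase inhibitor Timp1 at 11.41, 11.08 and 11.16 in the empty vector group and 9.59, 9.43 and 9.77 in the SRA group (-1.62), so a protease and an inhibitor of proteases fell alike in size. Of 16 collagen maturation enzymes 5 were lower, including the procollagen processing genes Pcolce (-1.12), Pcolce2 (-0.89) and Bmp1 (-0.83) and the lysyl oxidase relative Loxl3 (-1.10). The limma call of Pcolce2 (adjusted p = 0.0197) held in 2 of the 6 fits without an array. The count was 3 without empty vector replicate 1, SRA replicate 1 or SRA replicate 2, and 7 without empty vector replicate 2. Of 24 elastic fibre, tenascin and small proteoglycan genes 3 were lower, Thbs2 (-1.06), Fbln2 (-1.06) and Vcan (-0.70), and 1 higher, Prelp (0.83, adjusted p = 0.0225). Without empty vector replicate 2 that list had 6 lower, and Prelp was not called without empty vector replicate 2 or 3 or SRA replicate 1 or 2. Vcan held its limma call (adjusted p = 0.0297) in 2 of the 6 fits without an array.

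Integrins changed in both directions. These receptors join matrix to the cytoskeleton, and their alpha chains set which matrix is bound. Itga7 and Itga6, alpha chains of laminin receptors, rose, Itga7 from 8.70, 8.56 and 8.47 to 9.46, 9.40 and 9.32 (0.82, adjusted p = 0.00157) and Itga6 by 0.57 (adjusted p = 0.0395). Itga5, of the fibronectin receptor (-0.80), Itgav (-0.85) and the leukocyte chain Itgb2 (-1.09) fell. One of the 2 rises was lost without empty vector replicate 3, SRA replicate 1 or SRA replicate 2. Among 25 cadherins and other adhesion molecules 6 were lower and 0 higher. The largest fall was in Cdh11, the cadherin of mesenchyme, at 12.60, 12.18 and 12.40 on the empty vector arrays and 10.95, 10.55 and 11.02 on the SRA arrays (-1.55). Ncam1 (-1.27), Cdh13 (-0.92) and Cdh2 (-0.83) also fell. The groups overlapped for Cdh2, and its limma call (adjusted p = 0.0426) held in 1 of the 6 fits without an array. The list had 3 lower without empty vector replicate 3, SRA replicate 1 or SRA replicate 2, and 8 without empty vector replicate 2.

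Contractile genes fell in part. Of 25 smooth muscle and actin filament genes 8 were lower and 0 higher (median -0.33). Myl9, a myosin light chain, was at 9.35, 9.47 and 9.66 with the empty vector and 7.92, 8.02 and 8.34 with SRA (-1.40, adjusted p = 7.10e-05), the actin-binding calponin Cnn2 at 12.04, 11.88 and 12.13 in the empty vector group and 10.56, 10.66 and 11.06 in the SRA group (-1.26), and the tropomyosins Tpm2 and Tpm4 had differences of -1.15 and -0.86. Acta2, smooth muscle actin, fell by 0.80 (adjusted p = 0.0339) but was not called without empty vector replicate 2 (adjusted p = 0.104), and Tagln did not differ by more than its spread (-0.01, SE 0.19). The count was 4 without SRA replicate 1 or 2, 5 without empty vector replicate 3 and 10 without empty vector replicate 2. YAP is a coactivator that enters the nucleus of spread, tense cells and works with TEAD factors. Of 20 target genes 4 were lower and 0 higher: Ankrd1 at 9.35, 9.13 and 9.60 on the empty vector arrays and 7.52, 6.92 and 7.92 on the SRA arrays, the matricellular factor Ccn2 (-1.13), Tgfb2 (-1.00) and the receptor kinase Axl (-0.94). Another known target, Ccn1, differed among replicates by more than between groups, at 10.02, 8.82 and 11.44 with the empty vector and 8.77, 8.66 and 10.82 with SRA (adjusted p = 0.562), and without SRA replicate 2 the list had 2 lower.

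For these lists, promoter stretches around the motif are shown for the members with the largest falls that hold it, with the TEAD motif GGAATG in capitals for Ankrd1 (chr19:36119999-36120094, minus strand) and Axl (chr7:25788911-25788983, minus strand), and the CArG box, to which serum response factor binds, in capitals for Myl9 (chr2:156775253-156775362, plus strand) and Cnn2 (chr10:79988494-79988599, plus strand).
Ankrd1: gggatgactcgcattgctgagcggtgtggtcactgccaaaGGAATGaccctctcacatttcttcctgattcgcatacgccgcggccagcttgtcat
Axl: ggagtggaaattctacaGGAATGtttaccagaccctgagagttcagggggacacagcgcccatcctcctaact
Myl9: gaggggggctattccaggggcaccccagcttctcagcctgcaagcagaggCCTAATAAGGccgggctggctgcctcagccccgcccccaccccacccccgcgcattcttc
Cnn2: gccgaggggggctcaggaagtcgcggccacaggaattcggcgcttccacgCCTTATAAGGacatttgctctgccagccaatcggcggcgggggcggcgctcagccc
GGAATG was in the windows of 8 of the 14 YAP and TEAD targets with one, of which 2 were lower, against 15.3% of the measured genes. A CArG box was in 4 of 20 smooth muscle and actin genes, 2 of them lower, against 1.58%. Here too a match describes letters in a window and no binding.

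Secreted factors that stroma gives to its neighbours were mostly lower where they changed. Of 17 marrow niche factors 4 were lower: Cxcl12, the chemokine that keeps blood stem cells in marrow, at 13.77, 13.50 and 13.91 in the empty vector group and 12.59, 12.75 and 13.04 in the SRA group (-0.93, adjusted p = 0.00316), the macrophage growth factor Csf1 (-0.75), Angpt1 (-0.75) and Il33 (-0.67). Il33 was barely above the lowest levels of the array, between 3.58 and 4.48. The count was 2 without SRA replicate 2, and 6 lower with 1 higher without empty vector replicate 2. Of 33 genes of fibroblast, platelet-derived, vascular and hepatocyte growth factors and receptors 7 were lower and 0 higher (5 to 10 lower over the fits without 1 array). Hgf, hepatocyte growth factor, was at 9.01, 8.67 and 8.77 on the empty vector arrays and 7.38, 7.24 and 7.35 on the SRA arrays (-1.50, adjusted p = 3.65e-06), and the ligands Pdgfd (-1.73) and Fgf7 (-1.40) and the receptor Pdgfra (-1.25) fell with it. Vegfa, in contrast, had a difference of -0.05 (SE 0.16, adjusted p = 0.865).

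Genes of the TGF-beta and BMP pathways, of which TGF-beta drives matrix production and opposes adipogenesis, gave 7 lower and 0 higher of 35 measured (7 to 9 lower over the fits without 1 array). Ltbp1, which tethers latent TGF-beta to matrix, was at 10.44, 9.91 and 10.02 with the empty vector and 8.66, 8.10 and 8.35 with SRA (-1.75), the BMP antagonist Grem1 at 9.44, 9.63 and 9.32 in the empty vector group and 7.92, 7.66 and 7.90 in the SRA group (-1.63), and the ligand Tgfb3 at 10.13, 9.71 and 10.13 on the empty vector arrays and 8.59, 8.67 and 8.91 on the SRA arrays (-1.26, adjusted p = 6.87e-05). A ligand, a tether and an antagonist were thus all among the falls. In the Wnt pathway, which holds precursors out of the fat lineage, 4 of 39 measured genes were lower and 1 higher. The 4 were secreted or surface modulators, Sfrp2 at 8.40, 7.41 and 7.99 with the empty vector and 7.05, 6.13 and 6.76 with SRA (-1.29), Dkk3 (-1.26), Rspo2 (-1.03) and Apcdd1 (-0.80), known as inhibitors or, for Rspo2, an agonist, while Porcn rose. Over the fits without 1 array 3 or 4 of the list were lower and 1 higher. Gas1, a surface protein that binds hedgehog, was the called one of 25 Notch and hedgehog genes (-0.86; 3 were lower without empty vector replicate 2 and 2 without SRA replicate 3), and Errfi1, an inhibitor of the epidermal growth factor receptor, that of 13 in its list (-0.94; not called without empty vector replicate 1 or 3 or SRA replicate 1 or 2). Of 39 axon guidance genes, which also steer cell migration, 7 were lower, with Sema7a at 9.09, 9.64 and 9.39 in the empty vector group and 7.53, 7.79 and 7.99 in the SRA group (-1.61), Slit2 (-1.54), Sema5a (-1.36) and Efnb2 (-1.30), and 5 to 7 were lower over the fits without 1 array.

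Receptors for lipid mediators and hormones moved both ways. Of 26 prostanoid and lipid mediator genes 3 were higher and 4 lower. Against the rises of Ptgir, Ffar2 and Abhd6 stood Ptgfr, the receptor for prostaglandin F2-alpha, a known inhibitor of adipogenesis, at 8.46, 7.60 and 8.32 on the empty vector arrays and 6.40, 6.28 and 6.74 on the SRA arrays (-1.65, adjusted p = 1.34e-04), and the sphingosine 1-phosphate receptors S1pr1 at 9.65, 9.41 and 9.60 with the empty vector and 7.48, 7.67 and 7.66 with SRA and S1pr3 at 9.55, 9.12 and 9.58 in the empty vector group and 7.64, 8.11 and 7.83 in the SRA group (-1.55). Over the fits without 1 array 3 or 4 of the list were higher and 4 lower. Among 19 hormone and amine receptors the insulin receptor and the IGF-1 receptor changed in opposite directions. Insr was at 9.79, 9.18 and 9.49 on the empty vector arrays and 10.02, 10.22 and 10.22 on the SRA arrays (0.67, adjusted p = 0.0145) and Igf1r at 9.29, 9.20 and 9.27 with the empty vector and 8.53, 8.59 and 8.59 with SRA (-0.69, adjusted p = 0.00423). Insr was not called without SRA replicate 2 or 3, whereas Igf1r was called whichever array was left out. Npr3, which clears natriuretic peptides, was at 9.52, 8.50 and 8.88 in the empty vector group and 7.52, 6.95 and 7.10 in the SRA group (-1.78).

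Metabolic genes gave few calls. Of 20 measured adipocyte markers 5 were higher and 0 lower (median 0.39, and 0.21 without empty vector replicate 2): Slc2a4, Dgat2, the enzyme of the last step of triglyceride synthesis (0.88), the fatty acid translocase Cd36 (0.86), the glycerol channel Aqp7 (0.85) and Gpd1, which makes glycerol 3-phosphate (0.80). Without empty vector replicate 1 the count was 9. Of 24 fatty acid oxidation and peroxisome genes 1 was higher, Pex11a, a peroxisome division protein (0.66), although 23 lay above 0 (median 0.33, and 0.14 without empty vector replicate 2). The count was 6 without empty vector replicate 1 and 0 without SRA replicate 1 or 3. All 32 oxidative phosphorylation subunits and 21 of 22 tricarboxylic acid cycle enzymes also lay above 0, with medians of 0.23 and 0.30. Of these lists 9 and 11 genes varied enough to be tested, and 0 of either list were called by limma. Among those tested, 3 and 2 had an unadjusted p under 0.05. Without empty vector replicate 2 the medians were 0.06 and 0.14. On empty vector replicate 2 the oxidative phosphorylation list averaged 12.62, against 13.18 and 13.00 on the other empty vector arrays and 13.11 to 13.21 on the SRA arrays. Without empty vector replicate 1, 1 oxidative phosphorylation subunit was higher.

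In branched-chain amino acid catabolism, which feeds lipid synthesis in fat cells, the cytosolic aminotransferase Bcat1 was lower at 9.19, 9.19 and 9.77 on the empty vector arrays and 8.60, 7.83 and 8.84 on the SRA arrays (-0.96, adjusted p = 0.0101), and the mitochondrial aminotransferase Bcat2 (0.60) and the dehydrogenase subunit Bckdha (0.60) were higher, of 21 measured. The higher count was 7 without empty vector replicate 1, 1 without empty vector replicate 2 or SRA replicate 3, and 0 without empty vector replicate 3 or SRA replicate 1 or 2, and Bcat1 was not called without empty vector replicate 3 or SRA replicate 2. Among 19 sterol synthesis genes Cyp51, the lanosterol demethylase, was lower at 10.68, 10.35 and 10.42 with the empty vector and 9.49, 9.24 and 9.38 with SRA (-1.12, adjusted p = 8.37e-05), and Ebp, a later isomerase of the same route, higher at 11.52, 11.28 and 11.61 in the empty vector group and 12.35, 12.37 and 12.48 in the SRA group (0.93, adjusted p = 3.48e-04); 4 were lower without empty vector replicate 2 and 2 higher without empty vector replicate 1. Among 19 glycolysis genes Pfkfb3 was higher (0.81) and Eno3 lower (-0.64); Pfkfb3 held its call in 1 of the 6 fits without an array, that without empty vector replicate 1, and 5 genes were lower without empty vector replicate 2 but 0 without empty vector replicate 1 or 3 or SRA replicate 1 or 2.

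Retinoid and cytochrome P450 genes again moved both ways, with 2 higher and 3 lower of 25 measured (3 and 3 without empty vector replicate 2). The falls were Cyp2f2 at 11.30, 10.43 and 10.84 on the empty vector arrays and 9.83, 8.70 and 9.22 on the SRA arrays (-1.61), Cyp2e1 at 7.20, 7.87 and 6.97 with the empty vector and 6.26, 5.89 and 5.49 with SRA (-1.47), and Rdh10, which makes retinaldehyde (-0.81). Of 24 serine, one-carbon and amino acid response genes Mthfd1l was lower (-0.66, adjusted p = 0.0375), a call lost without empty vector replicate 1 or 3 or SRA replicate 1 or 2, and 2 genes were higher without empty vector replicate 3. Of 23 glutathione and NRF2 target genes 16 were tested and 0 were called, with 2 at an unadjusted p under 0.05 higher and 1 lower. Without empty vector replicate 1, 1 was higher, and without replicate 2, 1 lower.

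Clock genes were the one regulatory list with rises. The clock is a feedback loop in which CLOCK and BMAL1 drive repressors of the Per, Cry and Rev-erb families and output factors with a PAR domain. Of 18 measured clock genes 4 were higher and 0 lower. They were Dbp at 8.28, 7.59 and 8.18 in the empty vector group and 8.93, 9.13 and 9.12 in the SRA group (1.05, adjusted p = 0.00151), Per3 at 6.76, 6.49 and 6.99 on the empty vector arrays and 7.26, 7.70 and 7.59 on the SRA arrays (0.77), Nr1d2, a Rev-erb, at 10.00, 10.05 and 10.44 with the empty vector and 10.56, 11.14 and 10.97 with SRA (0.73), and Tef, like Dbp a PAR domain factor, at 9.74, 9.85 and 10.00 in the empty vector group and 10.23, 10.62 and 10.47 in the SRA group (0.58, adjusted p = 0.0359). Per1 and Per2, the other repressors of that family, had differences of -0.17 and -0.20 and were not called. The count was 4 without empty vector replicate 2, 2 without empty vector replicate 1, and 1 without SRA replicate 2 or 3. The hours at which cells were collected are not in the labels.

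Other regulators fell or gave no calls. Of 20 glucocorticoid-induced genes (dexamethasone was in the medium of both groups) 3 were lower: Cebpd, an early factor of adipogenesis, at 9.85, 10.06 and 9.79 on the empty vector arrays and 8.40, 8.30 and 8.56 on the SRA arrays (-1.48, adjusted p = 3.33e-05), Lcn2 (-0.79) and Errfi1; the count was 1 without empty vector replicate 1 or SRA replicate 2. Cebpa, the later factor of the same family, had a difference of 0.41 (adjusted p = 0.156), and Cebpb, an early one, of 0.01. Of 25 immediate early genes, which respond to growth factor signalling within minutes, 4 were lower, Fosl1 at 10.38, 9.77 and 10.49 with the empty vector and 8.40, 8.41 and 8.91 with SRA (-1.64, adjusted p = 1.97e-05), the ERK phosphatase Dusp6 (-1.40), Nr4a1 (-1.28) and Ier5 (-0.85). That count was 2 without empty vector replicate 3 or SRA replicate 1, 1 without SRA replicate 2 and 3 without empty vector replicate 2. Of 29 Hox and other positional genes and 25 imprinted genes 26 and 11 varied enough to be tested. Of those tested 0 were called by limma and 0 had an unadjusted p under 0.05. Without empty vector replicate 2, 2 positional genes were lower.

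Among markers of other lineages, 5 of 18 preadipocyte and stromal progenitor markers were lower and 0 higher: Pdgfra at a mean of 10.89 ± 0.24 (SD, n = 3) with the empty vector and 9.63 ± 0.14 (SD, n = 3) with SRA (-1.25), Cd44 (-1.04), Prrx1 (-0.91), Pdgfrb (-0.90) and Dpt (-0.69, adjusted p = 0.0496). The list kept 4 or 5 lower genes in each fit without 1 array. No osteoblast marker of 14 and no chondrocyte or tendon marker of 18 was called by limma, but only 6 and 8 varied enough to be tested. Of those tested, 0 and 1 had an unadjusted p under 0.05. In the chondrocyte and tendon list 1 gene was lower without empty vector replicate 2. Of 19 brown and beige markers Dio2 (-0.60, adjusted p = 0.0482) and Eva1b (-0.65, adjusted p = 0.0278) were lower, and neither was called without empty vector replicate 1 or 3 or SRA replicate 1 or 2, and 1 of them was without SRA replicate 3; 1 of the list was higher without empty vector replicate 3 or SRA replicate 1. Of 18 skeletal muscle markers Acta1 rose and Actn3 fell (-1.01), and of 16 neural and Schwann cell markers Ncam1 fell, at 10.06, 9.50 and 9.82 in the empty vector group and 8.93, 8.39 and 8.24 in the SRA group.

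Of the housekeeping lists, the chaperones of the endoplasmic reticulum had the largest count of rises. Of 26 proteasome subunits and 24 ribosomal proteins only 5 and 5 varied enough to be tested. Of those tested 0 were called and 0 had an unadjusted p under 0.05, while 1 ribosomal protein was lower without empty vector replicate 2. Of 26 lysosome and autophagy genes 2 were lower, the cathepsins Ctsh (-1.13, adjusted p = 3.79e-04) and Ctsk (-0.67), and Ctsk was not called without empty vector replicate 3 or SRA replicate 1 or 2; 3 were lower without empty vector replicate 2. Of 22 endoplasmic reticulum chaperones 21 lay above 0 (median 0.32, and 0.29 without empty vector replicate 2). Of the 22, 18 were tested and 3 were called higher, against 1.26% of all measured genes and 2.81% of those tested. The 3 were the disulfide isomerases Pdia4 (0.65) and Pdia6 (0.59) and the co-chaperone Dnajc3 (0.59). Their adjusted p ran from 0.0199 to 0.0388, and the count was 5 without empty vector replicate 3, 1 without empty vector replicate 1 or 2 or SRA replicate 3, and 0 without SRA replicate 1 or 2. The other tested probe set of Pdia6 (0.41) and the other 4 of Dnajc3 (-0.03 to 0.28) did not pass.

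Genes measured by several probe sets gave a check within the array. Of the called genes, 388 had another tested probe set, all probe sets of 378 of these lay on the same side of 0, and 273 had a second probe set called. Of the 147 called genes named by rule, 81 had another tested probe set, and for 13 of these no other one passed: Bcat1, Cdh2, Dnajc3, Evi2a, Fbln2, Itga5, Lama4, Pde4dip, Pdia6, Pex11a, Plcb4, Sema7a and Top2a. For 1 gene, Slc1a3, a glutamate transporter, probe sets were called in opposite directions, at log2 differences of -0.83 and 0.64, and no direction is given for it.

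Among 18123 pairs of measured genes that are neighbours in the RefSeq order, 36 had both genes called lower and 9 both higher, and 9 had calls in opposite directions. Of single measured genes 3.13% were lower and 1.26% higher. Whether neighbours share a call more often than other pairs was not tested. Several of the lower pairs are members of one family, which can share probe sequence: the chemokines Ccl2 and Ccl7 (-2.57 and -2.11), Gbp7 and Gbp3 (-1.00 and -1.26), Ifit2 and Ifit3 (-1.00 and -1.60), Igtp and Irgm2 (-0.96 and -0.84), Trim30a and Trim30d (-1.39 and -1.17), Slfn9 and Slfn8 (-0.87 and -0.76), C1ra and C1s1 of the complement pathway (-0.81 and -0.86), and Tmem176b and Tmem176a (-1.25 and -1.31). Ccl2 and Ccl7, which draw monocytes, are named here for their position, and Ccl2 was at 11.39, 10.55 and 11.34 on the empty vector arrays and 8.54, 7.91 and 9.12 on the SRA arrays. Unrelated neighbours that rose together were Ebp and Porcn (0.93 and 1.70) and Arhgap33 and Hspb6 (1.20 and 0.99), and Angpt1 and Rspo2 fell together (-0.75 and -1.03).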

How the data were processed

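RNA of the 6 ST2 samples and of 6 further samples of the series was hybridized to Affymetrix Mouse Genome 430 2.0 arrays from 5 µg of total RNA. The authors normalized all 12 arrays together by RMA, which corrects background, equalizes distributions and summarizes probes, and deposited log2 values; the tools named in the submitters' notes are affy, RMA and limma, with versions not given in the sources used here. Quantile normalization removes a shift common to all genes, and arrays have no read depth, so precision rests on their number.

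Of 45101 probe sets, 34958 carry a single gene symbol, 932 several and 9211 none in the platform annotation; those with several or none are not named. Probe sets with a variance above 0.05 over the 12 arrays (19068) were tested with limma 3.58.1 in R 4.3.3, in 1 model of the 4 groups, for SRA minus empty vector, with Benjamini-Hochberg adjustment and a threshold of 0.05. The filter and the model are those that the study describes. The numbers called here, and the fold changes of some probe sets, differ from the study's own, and the reason was not tested. Limma's nested F classification over both comparisons of the series was an alternative. The model shares its estimate of the spread among all 4 groups, with 8 residual degrees of freedom, and the median standard error of a tested gene was 0.18. Each gene is represented by its probe set of highest mean over the 6 ST2 arrays. Of 1216 list entries, 1118 had such a probe set; the others were not analysed here. Members and lists were chosen with earlier results of these data known.

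Genes named are the 25 largest rises and 25 largest falls among called genes whose groups do not overlap, leaving out genes in the study's own tables, up to 4 called members per list by size, the fixed markers and Sra1; other names were chosen after their values were seen. Promoter windows are RefSeq sequences of 250 bases before and 50 after the start site. The code was tested on simulated data.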

Additional observations from a re-analysis of the deposited data

How the results depend on the processing

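The direction of the result, more genes lower than higher, held under every alternative tried except leaving out empty vector replicate 1, and no named called gene changed sign. Counts moved more, those of higher genes most. Leaving out 1 array at a time gave 133 to 976 probe sets and 72 to 486 genes higher, and 616 to 1874 probe sets and 331 to 941 genes lower. The extremes came without SRA replicate 2 (lowest in each case), without empty vector replicate 1 (most higher, with 436 genes lower) and without empty vector replicate 2 (most lower). A further quantile normalization gave 983 probe sets and 507 genes higher. Centring arrays on bright probe sets gave 1021 higher and 1761 lower probe sets (544 and 899 genes). A model of the 6 ST2 arrays alone gave 182 probe sets and 90 genes higher. Array weights, fitted gene by gene since the default fit did not converge, gave 1239 higher and 2699 lower probe sets (596 and 1301 genes). Limma's nested F classification over both comparisons gave 206 probe sets and 107 genes higher. A 2-fold minimum left 31 higher and 425 lower probe sets (20 and 236 genes). Averaging the probe sets of a gene gave 375 genes higher. The causes were not tested.

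With the replicate number as a block, 1377 probe sets were higher and 1646 lower (643 and 846 genes), against 445 and 1077 without it. Same-numbered arrays had correlations of deviations of 0.04, 0.27 and 0.53. The labels tie the numbers to no shared batch, so the main model does not pair the arrays. The immediate early list averaged highest on replicate 3 of both groups, 9.88 with the empty vector and 9.47 with SRA. With the block 8 of its genes were lower and 2 higher, against 4 and 0 without it. Whether same-numbered arrays share a batch was not tested. By these deviations SRA replicate 1 correlated best with empty vector replicate 2 (0.21), not with its own number. By the levels themselves its correlation was 0.992 with empty vector replicate 1 and 0.986 with empty vector replicate 2. Of 147 named called genes, 114 to 141 kept their call without 1 array and 130 to 147 under the other settings that refit or rescale. Precision is limited by the 3 arrays a group, with a median standard error of 0.18.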

Other observations

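Of the 799 called genes, 619 are in none of the lists, 420 of them lower and 199 higher. Adam6b, Klk1b5 and Lce1d, named after their values were seen, had high readings on empty vector replicate 2 alone. Adam6b was at 9.01 there and at 5.46 to 6.01 on the other ST2 arrays, Klk1b5 at 8.00 against 4.46 to 4.90, and Lce1d at 8.51 against 5.11 to 5.51, and none was called. Over all measured genes, 7 were more than 2 log2 units above every other ST2 array on replicate 2, and 0 on each of the other 5 ST2 arrays by the same measure.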
